A study of Mus musculus with 6 samples.

Results

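The Fc gamma receptor genes of the mouse, the chain through which the activating receptors signal, and the neonatal Fc receptor were examined in macrophages (MΦs) of the colonic lamina propria (LP). The members were all rows of the deposited gene table whose symbol was Fcgr1, Fcgr3, Fcgr4, Fcgr2b, Fcer1g or Fcgrt. All 6 were present, out of 14097 genes in the table. RNA-seq had been performed on 6 libraries, 1 for each of 2 genotypes at 1, 3 and 12 weeks of age. The mice were of the 129SvEv strain, were untreated, and either lacked the IL10 receptor beta chain (Il10rb-/-, KO) or carried 1 intact copy of its gene (Il10rb+/-, Het), so that the controls were heterozygous and not wild type. A single mouse gave each of the older libraries, whereas mice were pooled for both 1-week libraries. The cells had been sorted as CD45+ CD11b+ CD11c-intermediate CD103- CD64+ Ly6C- MHCII+ cells, the P3/P4 MΦ gate. CD64 is the protein made from Fcgr1, so the gate itself required the product of 1 of the 6 members.

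Fc gamma receptors bind the constant part of IgG and let MΦs take up and respond to IgG-coated particles. The activating receptors of the mouse, encoded by Fcgr1 (FcγRI, CD64, high affinity), Fcgr3 (FcγRIII) and Fcgr4 (FcγRIV), signal through a common gamma chain, encoded by Fcer1g, whose activation motif recruits the kinase SYK. The inhibitory receptor, encoded by Fcgr2b (FcγRIIB), carries an inhibitory motif that recruits the phosphatase SHIP-1, so the balance between both kinds of receptor sets how strongly a MΦ responds to immune complexes. The neonatal receptor FcRn, encoded by Fcgrt, is built differently: it pairs with beta-2-microglobulin, works inside the cell and rescues IgG from degradation.

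In the GRCm38 build, which is mm10, 4 of the genes lay close together on chromosome 1. Fcgr2b occupied chr1:170958617-170976547 on the minus strand, Fcgr4 chr1:171018920-171029761 on the plus strand, Fcgr3 chr1:171051174-171064935 on the minus strand and Fcer1g chr1:171229572-171234365 on the minus strand. Fcgr1 lay apart, at chr3:96282909-96293969 on the minus strand, and Fcgrt at chr7:45092990-45103851 on the minus strand. Fcgr2b and Fcgr3 are close relatives, and 94 of the 1733 stretches of 75 bases in Fcgr3 transcripts (5.42%) also occurred in Fcgr2b transcripts. Of the 5768 such stretches in Fcgr2b transcripts, 156 (2.70%) also occurred in a transcript of another gene. No stretch of this length in Fcgr1, Fcgr4, Fcer1g or Fcgrt was shared with another gene. Fcgr2b and Fcgrt each overlapped an antisense gene, Gm38204 and Gm45669, Fcgr3 and Fcgr4 each overlapped a small RNA gene on their own strand, and the strand setting of the counting was not given in the sources used here.

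The bases just before the start of each receptor gene are shown because the activating and the inhibitory receptors differed there in matches to the exact letters GAGGAA. The sequences are RefSeq's (GRCm38.p6), 120 bases up to the annotated start, 5′ to 3′ on the strand of the gene. Capitals mark the PU box, which the myeloid factor PU.1 is known to bind, in the form GAGGAA, searched on both strands of the 250 bases before each start. In the sequences below the PU box reads TTCCTC, its form on the opposite strand. The RefSeq starts of Fcgr2b and Fcgr3 lie inside the longer gene spans given above, which come from GENCODE.
Fcgr1, chr3:96293970-96294089, minus strand: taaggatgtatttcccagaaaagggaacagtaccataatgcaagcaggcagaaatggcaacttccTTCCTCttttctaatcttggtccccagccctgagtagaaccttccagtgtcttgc
Fcgr3, chr1:171059395-171059514, minus strand: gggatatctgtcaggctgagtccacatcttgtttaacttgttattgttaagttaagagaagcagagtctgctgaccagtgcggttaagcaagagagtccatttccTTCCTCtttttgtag
Fcgr4, chr1:171018806-171018925, plus strand: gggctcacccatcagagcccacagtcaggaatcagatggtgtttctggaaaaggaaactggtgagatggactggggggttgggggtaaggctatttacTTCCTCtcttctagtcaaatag
Fcgr2b, chr1:170976072-170976191, minus strand: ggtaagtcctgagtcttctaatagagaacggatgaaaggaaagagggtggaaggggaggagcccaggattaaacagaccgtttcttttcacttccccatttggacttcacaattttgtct
Fcgrt, chr7:45103823-45103942, minus strand: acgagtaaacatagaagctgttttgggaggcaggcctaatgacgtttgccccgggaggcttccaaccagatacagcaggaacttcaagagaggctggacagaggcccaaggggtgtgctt

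All 3 activating receptor genes held the PU box in the 250 bases, each in the same orientation. It began 55 bases before the start of Fcgr1, 22 before that of Fcgr4 and 15 before the first of the Fcgr3 starts. Fcgr2b, Fcer1g and Fcgrt held no match to these exact letters. Other forms of the site that PU.1 can bind were not searched, so a PU.1 site in these genes is not excluded. Among 32851 mouse promoter windows of this length, 23.25% held the PU box. These are matches of letters and no factor was measured at them.

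The 6 libraries held between 6700337 (Het, 3 weeks) and 40754971 (Het, 12 weeks) reads on the listed genes, read back from the step between the deposited values. Values are given as normalized counts, which the authors made by dividing each library's reads by its size factor. The targeted gene followed the labels, with Il10rb at 1221, 939 and 1107 normalized counts in Het MΦs and at 12.0, 24.6 and 27.4 in KO MΦs at 1, 3 and 12 weeks. With 1 library a group, a genotype difference at 1 age cannot be set against replicates, and the 95% intervals below are exact intervals for counting error only. In bulk RNA, fewer cells of a type and less RNA per cell cannot be told apart. Reads without molecular identifiers are not independent molecules.

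Expressed per kilobase of exon, which allows levels to be compared between genes, the chain was the most abundant member in all 6 libraries. Fcer1g stood at 10227 to 17713 normalized counts per kilobase. Fcgr3 came next in every library, at 3702 to 5468. Fcgrt came after it in 5 libraries, at 2479 to 4756, but was the lowest of all members in 12-week KO MΦs, at 384. Fcgr2b followed at 1237 to 3206, Fcgr4 at 435 to 1491 and Fcgr1 at 496 to 789. Over the 6 libraries the ranges of Fcer1g and of Fcgr3 lay above that of Fcgr2b, whereas the range of Fcgrt overlapped all but that of Fcer1g, and the range of Fcgr4 overlapped those of Fcgr2b and Fcgr1. With the longest coding transcript as the length, Fcgr3 stood at 4771 to 7048 and Fcgr2b at 2021 to 5237, so these 2 ranges overlapped. The order in each library was the same.

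The order of Fcgr1 and Fcgr4 per kilobase differed with age. At 1 week the level of Fcgr4 per kilobase was 0.803 times that of Fcgr1 in Het MΦs (95% counting interval 0.737 to 0.874) and 0.552 times in KO MΦs (0.490 to 0.620). These ratios were 1.48 (1.33 to 1.66) and 1.86 (1.74 to 1.99) by 3 weeks. In the 12-week libraries they were 1.72 (1.62 to 1.82) and 2.91 (2.75 to 3.08). Per kilobase, Fcgr4 was thus the lower of both genes in each 1-week library and the higher in each of the 4 later libraries. Without division by length, the ratios in Het and KO MΦs were 0.390 and 0.268 at 1 week and 0.720 and 0.903 at 3 weeks. At 12 weeks they were 0.833 and 1.41, so this order depends on the lengths used. The counting intervals leave out any error in these lengths.

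**Figure D1:**
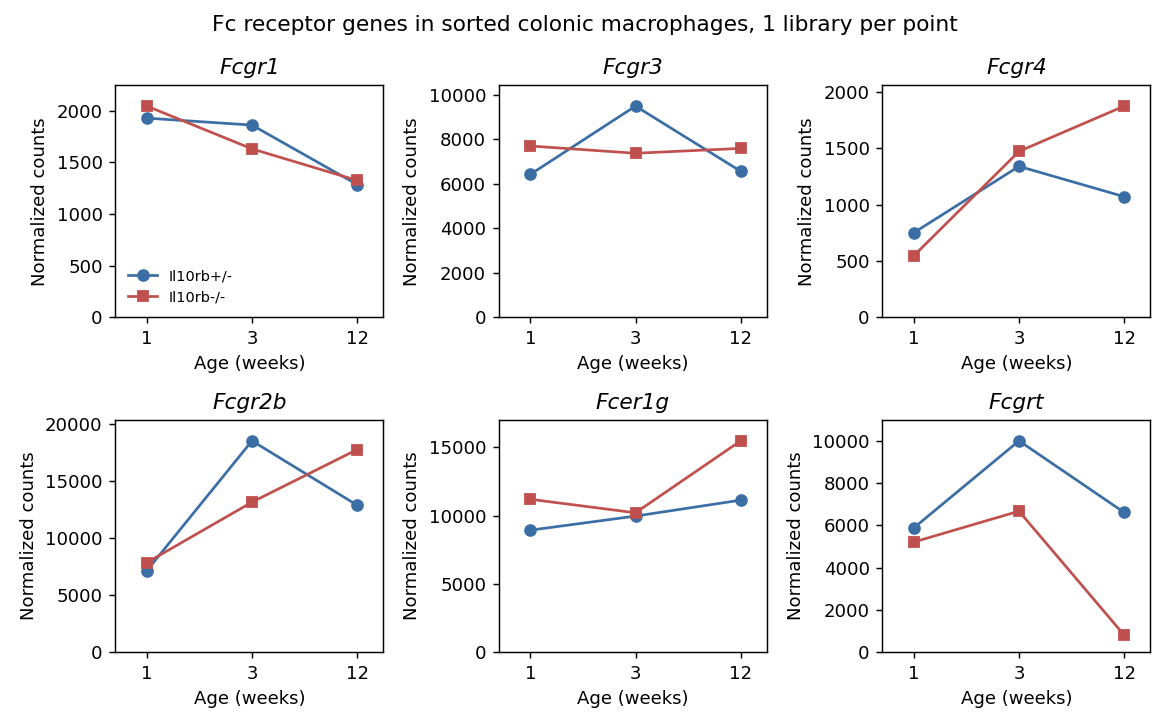
Normalized counts of the 6 genes (vertical axes, each from 0) at 1, 3 and 12 weeks (horizontal axes) in Het (blue circles) and KO (red squares) MΦs, 1 library per point. Fcgrt lies far below its other values in 12-week KO MΦs, at 807 normalized counts, while Fcgr4 in KO MΦs goes from 547 to 1872.

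Of the activating receptors, Fcgr1, the gene of the sort marker CD64, was nearly level between the genotypes. It stood at 1927, 1859 and 1285 normalized counts in Het MΦs and at 2043, 1629 and 1324 in KO MΦs at 1, 3 and 12 weeks. The log2 ratio of KO over Het was 0.08 at 1 week (95% counting interval -0.02 to 0.19), -0.19 at 3 weeks (-0.31 to -0.07) and 0.04 at 12 weeks (-0.04 to 0.13). Both 12-week libraries were below all 4 younger ones, and the log2 ratio of 12 weeks over 1 week was -0.58 in Het and -0.63 in KO MΦs.

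Fcgr3, the receptor with the highest level per kilobase, stood at 6426, 9493 and 6566 normalized counts in Het MΦs and at 7700, 7375 and 7593 in KO MΦs. The KO values lay within a narrow band, with an SD of 0.03 on the log2 scale over the 3 ages against 0.32 in Het MΦs, where the 3-week library stood highest. The log2 ratio of KO over Het was 0.26 (0.21 to 0.31) at 1 week, -0.36 (-0.42 to -0.31) at 3 weeks and 0.21 (0.17 to 0.25) at 12 weeks. When the libraries were scaled by their total reads, the 12-week ratio was -0.011, on the other side of 0. The narrow band of the KO values also depended on the scaling. With total reads, the log2 ratio within KO MΦs was -0.25 from 1 to 3 weeks and -0.37 from 3 to 12 weeks.

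Fcgr4 had the lowest normalized counts of the receptors on the cell surface in each library except that of 12-week KO MΦs, where Fcgr1 was lower. Its genotype ratio was higher at each later age. It stood at 751, 1338 and 1070 normalized counts in Het MΦs and at 547, 1471 and 1872 in KO MΦs. The log2 ratio of KO over Het was -0.46 (-0.64 to -0.28) at 1 week, 0.14 (-0.00 to 0.28) at 3 weeks and 0.81 (0.73 to 0.89) at 12 weeks. At 12 weeks this was 1.75-fold, and 88.1% of the 11067 genes kept for testing had a lower ratio. From 1 to 12 weeks Fcgr4 was 3.42 times higher in KO MΦs and 1.43 times higher in Het MΦs.

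The inhibitory receptor gene Fcgr2b stood at 7161, 18560 and 12906 normalized counts in Het MΦs and at 7871, 13180 and 17797 in KO MΦs. Both 1-week libraries were below all 4 later ones. Between 1 and 3 weeks it was 2.59 times higher in Het and 1.67 times higher in KO MΦs. The log2 ratio of KO over Het was 0.14 (0.08 to 0.19) at 1 week, -0.49 (-0.53 to -0.45) at 3 weeks and 0.46 (0.44 to 0.49) at 12 weeks. The genotype with the higher value therefore alternated, and at no age did the genotypes differ by as much as the Het libraries of 1 and 3 weeks did.

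Fcer1g, the gene of the common gamma chain, stood at 8938, 9970 and 11137 normalized counts in Het MΦs and at 11200, 10212 and 15481 in KO MΦs. It was higher in KO MΦs at 1 week, with a log2 ratio of 0.33 (0.28 to 0.37), and at 12 weeks, with 0.48 (0.45 to 0.50), whereas the 3-week ratio of 0.03 (-0.02 to 0.09) was within counting error. The SD of its log2 values over the 6 libraries was 0.27, against a median of 0.37 over the 11067 genes kept.

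Fcgrt, which encodes the heavy chain of FcRn, stood at 5881, 9997 and 6610 normalized counts in Het MΦs and at 5211, 6671 and 807 in KO MΦs. It was lower in KO MΦs at every age. The log2 ratio was -0.17 (-0.24 to -0.11) at 1 week, -0.58 (-0.64 to -0.53) at 3 weeks and -3.03 (-3.12 to -2.95) at 12 weeks, where it was 8.19-fold lower on 1267 against 13980 reads. Beta-2-microglobulin, its light chain, which MHC class I also uses, went the other way. B2m stood at 44832, 36410 and 61291 normalized counts in Het MΦs and at 59048, 61896 and 133451 in KO MΦs, with log2 ratios of 0.40, 0.77 and 1.12.

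**Figure D2:**
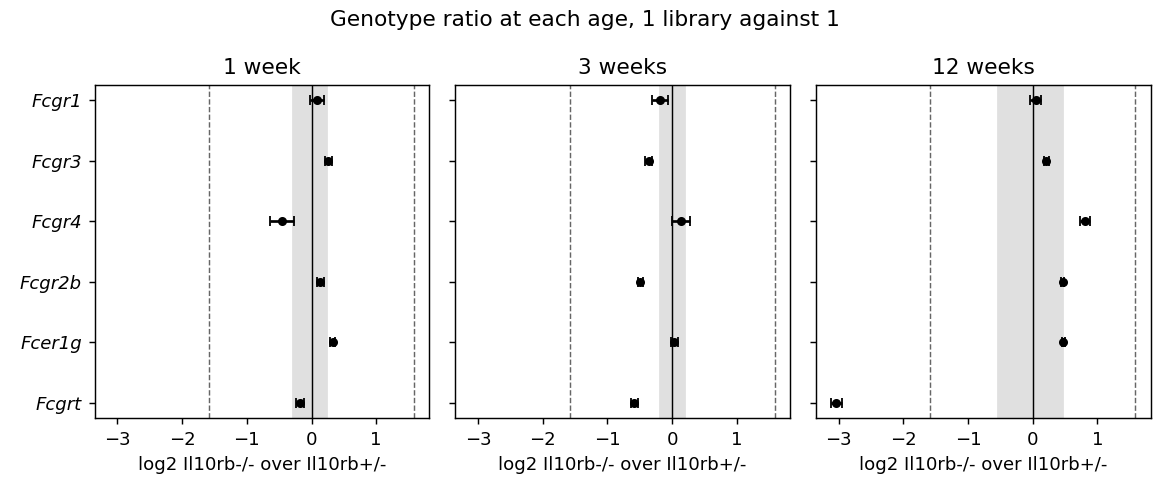
Log2 ratio of KO over Het normalized counts (horizontal axes) for each gene (rows) at 1, 3 and 12 weeks, with 95% counting intervals as bars. The grey band holds the middle 50% of all 11067 genes kept, and dashed lines mark 3-fold. Fcgrt at 12 weeks, at -3.03, is the only point past a dashed line, and Fcgr4 moves from -0.46 through 0.14 to 0.81.

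The study took a difference of over 3-fold between the genotypes as its rule of size. At 1 week 0 of the 6 genes passed it in either direction, while 2.75% of the 11067 genes kept were over 3-fold higher in KO MΦs and 0.75% over 3-fold lower. At 3 weeks it was again 0 of 6, against 1.34% higher and 0.642% lower. At 12 weeks 1 of 6, Fcgrt, was over 3-fold lower, against 9.99% of all genes, and 0 of 6 were over 3-fold higher, against 4.03%. The share of 1 in 6 rests on a single gene.

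With the 3 KO libraries set against the 3 Het libraries and age as a term, limma with Benjamini-Hochberg adjustment called 0 of the 6 genes and 0 of 11067 genes in all (0%), although 853 genes had an unadjusted p under 0.05. The values of both genotypes overlapped for each member. The fitted log2 difference of Fcgrt was -1.26 ± 0.56 (SE, n = 3 libraries a genotype), with an adjusted limma p of 0.63 and an unadjusted p of 0.067. The log2 differences of the other 5 genes lay between -0.02 (Fcgr1) and 0.28 (Fcer1g), with adjusted limma p between 0.65 and 0.97. The genotype difference is averaged over ages here, so this test cannot speak to a single age.

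The same model compared ages over both genotypes. Between 1 and 3 weeks it called 2 genes (0.0181%, Spint1 and Xdh, named after their values were seen) and 0 of the 6 members. Fcgr4 was higher at 3 weeks by 1.13 ± 0.32 on the log2 scale (SE, n = 2 libraries an age, unadjusted limma p 0.014, adjusted p 0.38). Fcgr2b was higher by 1.06 ± 0.29 (unadjusted limma p 0.012, adjusted p 0.37), and the other 4 members had differences between -0.19 and 0.56. Between 3 and 12 weeks it called 3 genes (0.0271%, Cxcl3, Ndrg1 and Spint1) and again 0 members. Fcgrt had the lowest unadjusted limma p of the members there (0.040, adjusted p 0.23), with a log2 difference of -1.82 ± 0.68. Its log2 ratio of 12 over 3 weeks was -0.60 in Het and -3.05 in KO MΦs. The unadjusted p was under 0.05 for 8.65% of all genes in the earlier step and for 20.4% in the later one.

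The balance of activating over inhibitory receptors was taken within each library, as the sum of the Fcgr1, Fcgr3 and Fcgr4 levels per kilobase over that of Fcgr2b. It was 4.08 in Het and 4.16 in KO MΦs at 1 week. By 3 weeks it was 2.26 in Het and 2.66 in KO MΦs, and the 12-week values were 2.30 and 2.07. Both 1-week libraries were thus well above the 4 later ones. With the longest coding transcript as the length, the balance was 3.03 and 3.13 at 1 week and between 1.52 and 1.96 later. Without division by length it was 1.27 and 1.31 at 1 week and between 0.606 and 0.795 later. Its size, and whether it was above 1, thus depended on the lengths used. The genotypes differed little beside the difference between 1 week and later. The log2 difference, KO minus Het, was 0.03 ± 0.07 at 1 week, 0.23 ± 0.06 at 3 weeks and -0.15 ± 0.04 at 12 weeks (± 95% counting error, 1 library a group), and it was not tested.

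Each receptor contributed differently. Fcgr3 per kilobase was 2.99 times Fcgr2b in 1-week Het MΦs and 3.26 times in KO MΦs. The 3-week ratios were 1.71 and 1.87, and the 12-week ratios 1.70 and 1.42. Fcgr1 was 0.602 and 0.580 times Fcgr2b at 1 week, and between 0.166 and 0.276 times in the 4 later libraries. Fcgr4 showed no such step between 1 week and later. Its ratio was 0.483 in Het and 0.320 in KO MΦs of 1 week. It was 0.332 and 0.515 in the 3-week and 0.382 and 0.485 in the 12-week libraries, so it was lower in KO MΦs at 1 week and higher at both later ages. Without Fcgr4 in the sum, the log2 difference between genotypes at 12 weeks was -0.27 in place of -0.15, and as a mean of log2 levels the 1-week difference was -0.17 in place of 0.03. The direction at 3 and 12 weeks was the same under every definition of the balance that was tried.

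**Figure D3:**
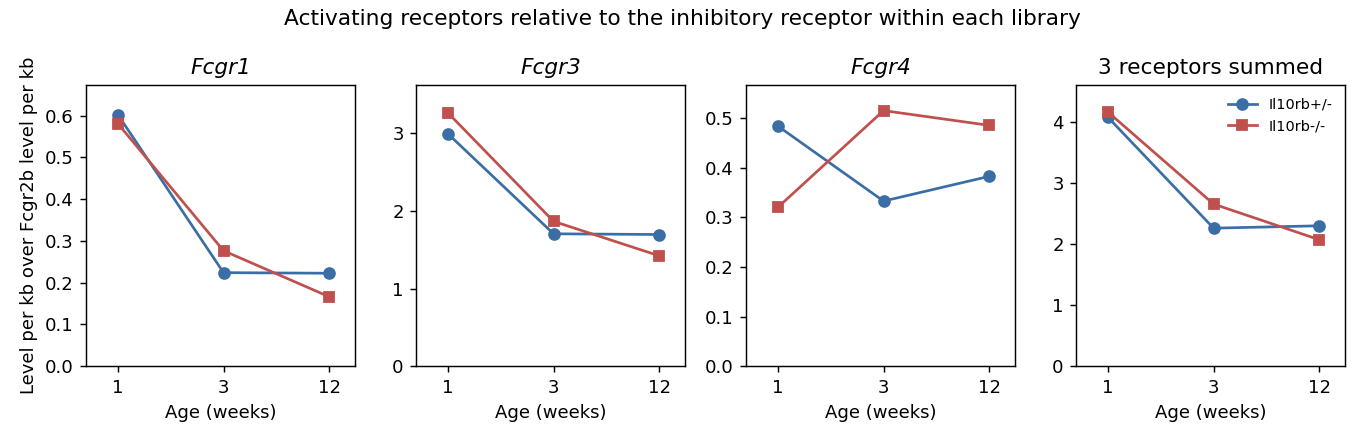
Level per kilobase of Fcgr1, Fcgr3, Fcgr4 and their sum, each divided by the level per kilobase of Fcgr2b in the same library (vertical axes, from 0), by age in weeks, for Het (blue circles) and KO (red squares) MΦs. The sum is at 4.08 and 4.16 at 1 week and between 2.07 and 2.66 later, and the genotypes cross for each receptor, with Fcgr4 at 0.483 in Het against 0.320 in KO MΦs at 1 week and at 0.382 against 0.485 at 12 weeks.

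Genes that act with the receptors were described by lists of known function, with the median log2 ratio of KO over Het set beside that of all 11067 genes kept, which was -0.04 at 1 week, 0.02 at 3 weeks and 0.04 at 12 weeks. No listed gene was called for genotype by limma. Of all genes kept, 2.75%, 1.34% and 4.03% were over 3-fold higher in KO MΦs at 1, 3 and 12 weeks. The shares over 3-fold lower were 0.75%, 0.642% and 9.99%. The 28 proximal kinases and adaptors, the enzymes and scaffolds directly below the activating receptors, had medians of -0.09, 0.18 and 0.58. The SYK gene itself stood at 4871, 5210 and 6532 normalized counts in Het MΦs and at 4612, 6481 and 12985 in KO MΦs. At 12 weeks 2 of 28 passed 3-fold upward and 1 passed it downward. Malt1, a protease of the CARD9-BCL10-MALT1 complex that carries SYK signals to NF-κB, was 4.06-fold higher, at 21775 against 5367 normalized counts. Lat, an adaptor best known from T cells, was low throughout, and was 5.33-fold higher at 12 weeks on 113 against 21.3 normalized counts. It also was the 1 gene of the list past 3-fold at 1 week, with 16 against 4 reads, and at 3 weeks, with 17 against 0 reads, which is at least 2.05-fold higher when 3 reads are taken as the floor.

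Blnk, an adaptor that links SYK to phospholipase C in B cells and MΦs, was 19.3-fold lower in 12-week KO MΦs, at 99.3 against 1915 normalized counts. Most B and plasma cell markers were also lower there. Of 10 kept markers of the list, 8 were over 3-fold lower in KO MΦs at 12 weeks, and Ms4a1, which encodes the B cell antigen CD20, stood at 921 normalized counts in Het and 75.1 in KO MΦs. The plasma cell marker Sdc1 went the other way, at 634 in Het and 5560 in KO MΦs, and Xbp1 was nearly level, with a log2 ratio of 0.13. Fcgr2b is the only Fc gamma receptor that B cells carry, and at 12 weeks it stood at 12906 normalized counts in Het and 17797 in KO MΦs. The summed level of the 11 listed markers was 8397, 7174 and 26381 in Het and 6213, 6807 and 15496 in KO MΦs, most of it from Jchain and Xbp1 at 12 weeks. Their part in the values of Blnk or Fcgr2b was not tested.

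Of 15 genes of the phagocytic cup and actin, 0 were over 3-fold apart at any age, and the medians were 0.08, 0.11 and 0.42. Of 11 inhibitory effectors, among them the SHIP-1 gene Inpp5d that Fcgr2b recruits, 0 were over 3-fold apart, with medians of -0.13, -0.09 and -0.01. At 12 weeks 4.03% of all genes kept were over 3-fold higher in KO MΦs and 9.99% lower. Whether lists this small differ from all genes was not tested. Inpp5d stood at 8416, 7055 and 5293 normalized counts in Het and at 6571, 6595 and 4029 in KO MΦs. The 13 other inhibitory receptors of myeloid cells had medians of 0.07, 0.07 and -0.06. Among them Cd300lf was 10.8-fold higher in KO MΦs at 12 weeks (4513 against 420 normalized counts), and Clec12a 4.05-fold higher at 1 week (1254 against 309).

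The other receptors that use Fcer1g or the related adaptor Tyrobp lay on both sides of 0 at 12 weeks. Of 14 genes, 3 were over 3-fold higher in KO MΦs at 1 week and 0 lower, 0 were past 3-fold at 3 weeks, and 4 were higher and 4 lower at 12 weeks. Clec4e, which encodes the Fcer1g-coupled receptor Mincle, stood at 847, 2847 and 9388 normalized counts in Het MΦs and at 3005, 6463 and 57621 in KO MΦs. It was 3.55-fold higher in KO MΦs at 1 week and 6.14-fold higher at 12 weeks. Trem1, which pairs with Tyrobp and amplifies inflammation, was 4.28-fold higher at 1 week and 11.8-fold higher at 12 weeks, where it stood at 9742 against 825 normalized counts. At 12 weeks Siglech had 0 reads in KO MΦs against 2232 in Het MΦs, at least 552-fold lower with a floor of 3 reads, and Lilra5 was 4.91-fold lower. The chain Fcer1g and its relative Tyrobp (10519 against 15305 normalized counts at 12 weeks, log2 ratio 0.54) thus differed far less between the genotypes than several of the receptors that use them.

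Of 9 kept genes for other Fc receptors and IgG-binding proteins, 4 were over 3-fold lower in KO MΦs at 12 weeks and 2 were higher by as much, and the medians at the 3 ages were -0.32, -0.68 and -0.69. Fcrls, a receptor-like gene of resident MΦs and microglia, stood at 2663, 4227 and 3414 normalized counts in Het MΦs and at 2242, 2303 and 19.7 in KO MΦs. It was 173-fold lower at 12 weeks. Fcer2a, the low-affinity IgE receptor of B cells, was 3.68-fold lower at 1 week and 19.2-fold lower at 12 weeks, from 220 to 11.5 normalized counts, and Fcrl1, also a B cell gene, was 3.02-fold lower at 1 week. Pigr, which carries IgA across epithelium, was 18.1-fold higher at 1 week on 48 against 4 reads and 4.18-fold higher at 12 weeks. Fcrlb was 6.43-fold higher at 12 weeks.

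**Figure D4:**
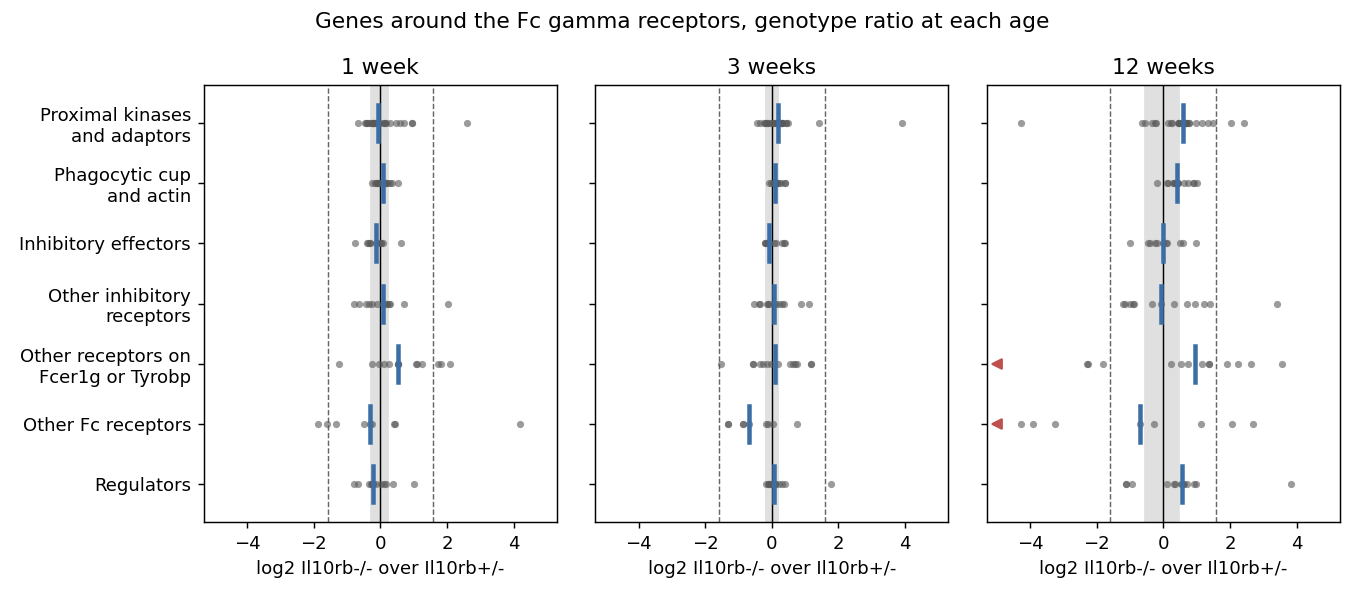
Log2 ratio of KO over Het normalized counts (horizontal axes) for each kept gene of the 7 lists (dots) with the list median (blue bars), at 1, 3 and 12 weeks. The grey band holds the middle 50% of all genes kept, dashed lines mark 3-fold, red triangles are genes below -5, and 0 reads are drawn as a value of 1. The actin and inhibitory effector lists stay between the dashed lines at every age, whereas receptors on Fcer1g or Tyrobp lie on both sides of them at 12 weeks. Of all genes kept, 4.03% were over 3-fold higher in KO MΦs at 12 weeks and 9.99% over 3-fold lower.

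The 14 regulators known for Fc gamma receptor genes had medians of -0.22, 0.08 and 0.56. Spi1, which encodes PU.1, stood at 6592, 7481 and 9412 normalized counts in Het MΦs and at 8525, 7983 and 12025 in KO MΦs.

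The profiles over the 6 libraries set the members apart from each other. Fcgr2b and Fcgr4 had the highest Pearson correlation of log2 values among the pairs of members (0.89, n = 6 libraries), and Fcgrt and Fcer1g the lowest (-0.89). The 6 points share depth, age and genotype, so these are descriptions. The 3 genes most like each member were Zcchc4, Lrrc40 and Ppil4 for Fcgr1 (r from 0.99 to 1.00), Cspp1, Sirt4 and Sdhaf4 for Fcgr3 (0.93 to 0.95), and Zfp940, Trpm2 and Ms4a4b for Fcgr4 (0.99 to 1.00). They were Ring1, Pex11a and Bcl6 for Fcgr2b (0.98 to 0.99), Arpc3, Cox8a and Rnf217 for Fcer1g (0.99 to 1.00), and Itsn1, Fbxl19 and Rgl3 for Fcgrt (all 1.00 after rounding). Over 0.95 stood 275 genes for Fcgrt and 273 for Fcer1g, but 1 for Fcgr3.

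The sorted cell type was checked by its markers. For the counts past 3-fold below, 4.03% of all genes kept were over 3-fold higher in KO MΦs at 12 weeks and 9.99% lower. The list of 12 genes of the gate and of MΦs included the member Fcgr1. The gate required the proteins of several of these genes, so their presence was set by the sort. Of the 12 genes, 0 were over 3-fold apart at 1 and 3 weeks. Adgre1 (F4/80), Cx3cr1 and C1qa were over 3-fold lower in 12-week KO MΦs. Adgre1 stood at 3800 against 16537 normalized counts, and Cx3cr1 at 906 against 8074. Ly6c2, which the gate should leave out, was at 5.95 normalized counts in Het and 4.49 in KO MΦs of 1 week. It was at 9.73 and 285 in the 3-week libraries and at 143 and 2611 in the 12-week libraries. Its neighbour Ly6c1 went the other way at 12 weeks, at 585 in Het and 116 in KO MΦs. The 12-week KO library, the source of the low Fcgrt value, thus had low levels of 3 of the 12 genes. Mertk (log2 ratio -1.07) and Cd74 (-0.37) were also lower in KO MΦs, though not past 3-fold. The median log2 ratio of all 12 genes was 0.012. Csf1r (-0.01) was level, and Ptprc (0.56), Itgam (0.49) and Itgax (1.05) were higher in KO MΦs. Of 8 monocyte markers, 5 were over 3-fold higher and 1 lower there.

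Other cells carry these receptors too, as neutrophils are known for Fcgr3 and Fcgr4, NK cells for Fcgr3, mast cells for Fcer1g, and endothelium and epithelium for Fcgrt. The summed neutrophil markers stood at 94.2, 444 and 568 normalized counts in Het MΦs and at 208, 314 and 6669 in KO MΦs, and 6 of 7 kept markers were over 3-fold higher in KO MΦs at 12 weeks, where Fcgr4 was highest. Ngp, a granule gene of neutrophils, had 0 reads in 5 libraries and 282 in 12-week KO MΦs. The summed NK markers were 155 in Het and 785 in KO MΦs at 12 weeks, mostly from Klrk1 and Nkg7. Listed genes below the filter went both ways there. Klrb1c stood at 5.67 in Het and 1.27 in KO MΦs, Prf1 at 17.5 and 0.637, and Gzma at 2.36 and 26.1. Of 8 listed mast cell markers only 3 had a row, so the list says little about mast cells. Kit and Hdc were over 3-fold higher in KO MΦs at 3 and 12 weeks. The mast cell protease gene Cma1 was at 1 read or 0 in both 12-week libraries. Of 7 endothelial markers 6 were over 3-fold lower in 12-week KO MΦs (summed 1425 against 442), as Fcgrt was. Of 10 epithelial markers 5 were over 3-fold higher there (summed 1069 in Het against 2689 in KO MΦs) and 1, Car1, was 3.30-fold lower, and 6 were higher by as much at 1 week (191 against 1152). The part of any of these in the values of the members was not tested.

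Of 5 T cell markers, Cd3g was over 3-fold higher and Cd4 over 3-fold lower in 12-week KO MΦs. Cd3e (log2 ratio 1.23), Lck (1.49) and Cd5 (0.92) were higher there without passing 3-fold. Cd4 had 3255 reads in 1-week Het MΦs, where Cd3e had 0. Both kept eosinophil markers were over 3-fold lower in 12-week KO MΦs. Of 5 kept dendritic cell markers, Ccr7 was over 3-fold higher in KO MΦs at 3 and 12 weeks, while the list's median log2 ratios were -0.02, -0.47 and 1.16, and Cd209a was at -1.46 at 12 weeks. Ccr7 stood at 2003, 1029 and 10331 normalized counts in Het and at 1976, 3159 and 38707 in KO MΦs.

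**Figure D5:**
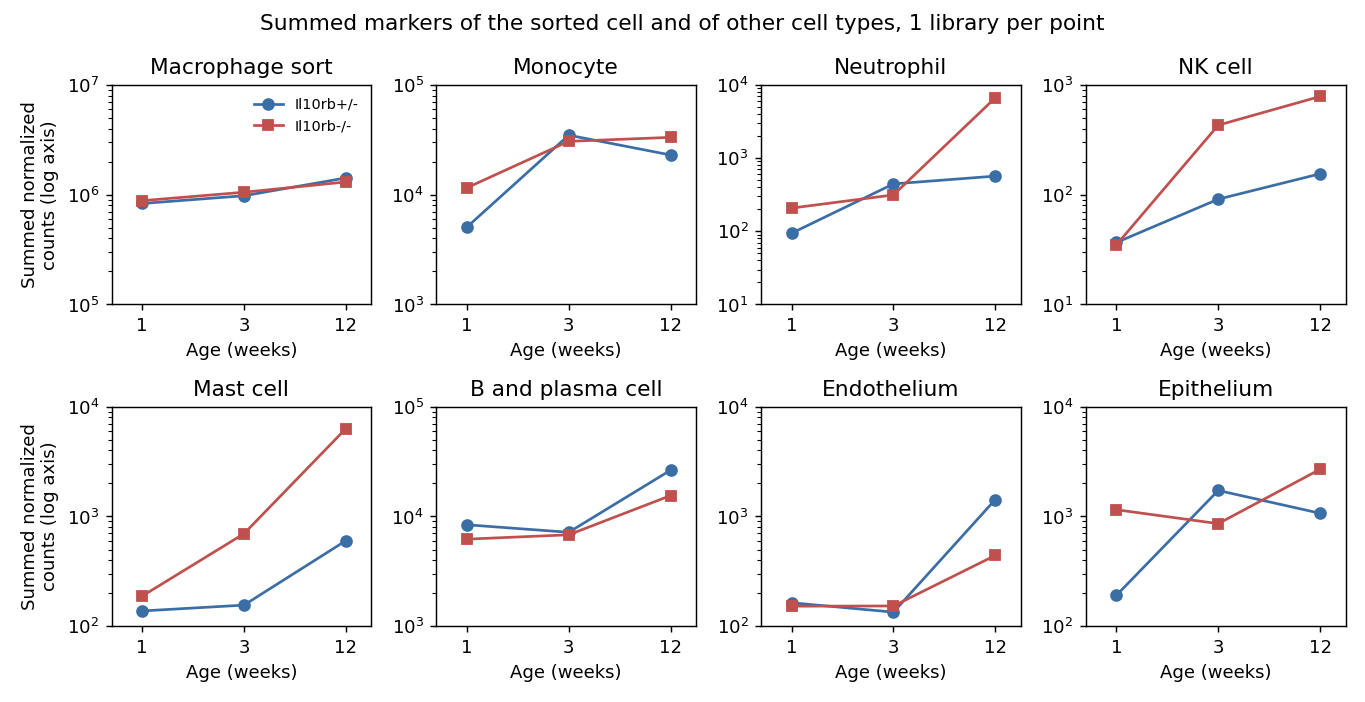
Summed normalized counts of the markers of the sorted MΦ and of 7 other cell types (vertical axes, logarithmic) by age in weeks, in Het (blue circles) and KO (red squares) MΦs, 1 library per point. Most of the MΦ sum is Cd74, H2-Aa and H2-Ab1, so it does not show the low Adgre1, Cx3cr1 and C1qa of 12-week KO MΦs. Neutrophil markers reach 6669 in 12-week KO MΦs alone, and endothelial markers are at 1425 in Het against 442 in KO MΦs at 12 weeks.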

How the data were processed

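RNA of sorted colonic LP MΦs was sequenced in 6 libraries. The authors trimmed and aligned the reads (Trim Galore, TopHat, mm10), counted them on genes with HTSeq and deposited a normalized signal, the counts divided by DESeq size factors with a count of 0 shown as 1. Their versions and the strand setting were not given in the sources used here. In each library 100% of values other than 1 were whole multiples (tolerance 0.02) of a single step, 0.473 to 2.43 normalized counts, from which reads were recovered for counting intervals (exact Clopper-Pearson, 95%). As values are normalized with replaced zeros, no count model was used. Genes at 50 normalized counts or more in at least 1 library were kept (11067 of 14097, all 6 members). limma 3.58.1 in R 4.3.3 was fitted to log2(value + 1) with age and genotype as terms (2 residual degrees of freedom, trend, Benjamini-Hochberg, threshold 0.05). As each older library is 1 mouse and each 1-week library a pool of mice, p-values measure only the spread between these libraries. Python 3.11.15 (numpy 2.4.6, scipy 1.17.1, pandas 2.3.3) did the rest, and both were tested on simulated data. Groups came from the titles. Exon lengths and positions were from the GENCODE annotation of GRCm38, and promoters from RefSeq (6 of 6 matched).

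The members and lists were chosen with earlier results of these data known. Named genes were the 6 members, Il10rb, list genes called by limma or with the 2 highest and 2 lowest ratios past 3-fold at each age, and the 3 genes most correlated with each member; other genes named were chosen after their values were seen. List genes without a row were not analysed here, and some named by the rule are not reported here. Floors are 3 reads.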

Additional observations from a re-analysis of the deposited data

Results flagged for a closer look

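For 3 members the genotype ratio had opposite directions at different ages, each beyond counting error, and the difference between ages was not tested, as each group was 1 library. For Fcgr4 the log2 ratio of KO over Het went from -0.46 at 1 week to 0.81 at 12 weeks, a difference of 1.26. For Fcgr2b it went from -0.49 at 3 weeks to 0.46 at 12 weeks, a difference of 0.96. For Fcgr3 it went from -0.36 at 3 weeks to 0.26 at 1 week, a difference of 0.63. The ratios below 0 of Fcgr2b and Fcgr3 compare 1 KO with 1 Het library of 3 weeks. This Het library had the fewest reads (6700337) and the highest values of both genes. Any part of its depth in these ratios was not tested.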

How the results depend on the processing

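The number of members past 3-fold (0, 0 and 1 at 1, 3 and 12 weeks) was the same with TMM scaling, scaling by total reads and a pseudocount of 10. Scaling by total reads moved the 12-week ratio of KO over Het by -0.22 on the log2 scale for a typical gene. It turned the sign of the 12-week log2 ratio of Fcgr3 (-0.011), and within KO MΦs from 3 to 12 weeks of Fcgr3 (-0.37) and Fcgr4 (-0.069), and within Het MΦs of Fcer1g (-0.081). The count of genes called for genotype (0) was 1 with a pseudocount of 10 and 1 without the age term, and leaving out 1 age gave 3 to 61, the most without the 12-week pair and 20 without the 1-week pair. None of these fits called a member, and Fcgrt had a log2 difference between -1.81 and -0.38 over them (adjusted limma p from 0.43 to 0.99), the smallest without the 12-week pair. Genes called for age were 8 with a pseudocount of 10 in both steps, and 0 from 3 to 12 weeks when scaled by total reads. With a filter on the compared pair alone, genes past 3-fold were 133 in place of 387 at 1 week and 105 in place of 219 at 3 weeks. As a mean of log2 values, the activating over inhibitory difference was -0.17, 0.35 and -0.11 at the 3 ages. Without Fcgr4 it was 0.15 at 3 weeks and -0.27 at 12 weeks, and without length division -0.19 at 12 weeks. The length of the longest coding transcript, and the other scalings of the age steps, were added after seeing the data. The cause of these changes was not tested. The planned count models were not run, since the deposited values are normalized with replaced zeros. Libraries of the same age are paired by the age term of the model. Beyond this age term, no paired analysis was possible because each group is 1 library and no replicate number pairs libraries. In the 3-week Het library 3 reads correspond to 7.30 normalized counts, and in the 3-week KO library to 2.64.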
